A study of Homo sapiens with 12 samples.

Results

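The mitochondrial chromosome carries 37 annotated genes: 13 genes for proteins, 2 for ribosomal RNAs (rRNAs) and 22 for transfer RNAs (tRNAs). All 37 were found in the deposited table of 58721 genes, as the rows whose Ensembl identifier lies on the mitochondrial chromosome in GENCODE release 29. Their RNA was measured in 2 established human cell lines, LAD2, a mast cell line, and HT-29, a colorectal cancer line, each kept alone or together with the other line in direct contact over 12 h. The groups were LAD2 coculture, LAD2 alone, HT-29 coculture and HT-29 alone, with no genetic change or drug named for any of them. LAD2 was grown in SP34 medium with its supplement and HT-29 in McCoy 5A medium with serum, and the labels name neither the medium of the coculture nor how the lines were parted before RNA extraction. RNA came from a micro column kit for LAD2 and a mini column kit for HT-29, so line and kit cannot be told apart. The labels do not say whether messenger RNA was selected or ribosomal RNA removed before library preparation.

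Each group had 3 columns. Those of LAD2 coculture did not differ from each other at any gene and stand for 1 library here, which left 10 distinct libraries of 17229788 to 34142465 counts. No label speaks of separate cultures, and p-values thus cover the spread of these libraries alone, which may be technical. Levels are given as counts per 1e6 counts of the library (CPM), and levels of different genes are compared only as CPM per 1000 bases of gene (CPM per kb). The label of each line was checked against 15 mast cell and 15 epithelial marker genes, whose sums in their own line were far above those in the other. The summed mast cell markers stood at 271.6 to 295.3 CPM in HT-29 coculture, against 33.1 to 33.7 CPM in HT-29 alone, where 12 of the 15 had no count in any library. The summed epithelial markers stood at 1094 CPM in LAD2 coculture, against 225 to 249 CPM in LAD2 alone, where 6 of the 15 had no count. From genes that only the other line expresses, HT-29 RNA made up an estimated 5.26% of the LAD2 coculture library, and LAD2 RNA made up 1.04%, 1.09% and 1.19% of the HT-29 coculture libraries. In bulk RNA, fewer cells of a type and less RNA per cell cannot be told apart, nor can fewer mitochondrial genomes and less RNA from each.

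Mitochondrial DNA is read as long transcripts from a promoter on each strand. The tRNAs lie between most of the other genes, and their excision releases the rRNAs and mRNAs. Most of these then receive short tails of A. The proteins are subunits of complexes I, III and IV of the respiratory chain and of ATP synthase, and are made on mitochondrial ribosomes built from the 2 rRNAs and from proteins of nuclear genes. Mast cells and colon cancer cells both keep this genome, and all other subunits of these complexes come from the nucleus.

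On the reference, 28 of the 37 genes lie on the plus strand and 9 on the minus strand. The minus-strand genes are MT-ND6, the only protein gene on that strand, and 8 tRNAs. Many adjacent genes touch or overlap, so that reads can belong to more than 1 of them. The sequences below come from the GENCODE 29 transcripts (GRCh38). The first pair is shown because reads over shared bases cannot be assigned to 1 gene. MT-ATP8 and MT-ATP6, both subunits of ATP synthase, share 46 bases, which are 22.2% of MT-ATP8 and 6.76% of MT-ATP6, and MT-ND4L and MT-ND4, both subunits of complex I, share 7 bases. In the overlap of MT-ATP8 and MT-ATP6 (chrM:8527-8572, plus strand) the capitals mark the start codon of MT-ATP6 and the stop codon of MT-ATP8. In the last 30 bases of MT-ND4L (chrM:10737-10766, plus strand) they mark the bases shared with MT-ND4.
ATP8-ATP6 overlap: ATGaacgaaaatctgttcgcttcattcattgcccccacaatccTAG
ND4L-ND4 junction: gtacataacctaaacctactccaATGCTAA

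The next set shows the last 24 bases of the 6 mRNAs whose annotated sequence ends within a stop codon. The encoded part of that codon is in capitals. MT-ATP6 is not among them, as its annotated end, position 9207, is also the first base of MT-CO3. The tail of A completes the codon, so the 6 mRNAs need a tail to be read to their end. MT-ND1 ends in TA and the other 5 end in T. The stretches are chrM:4239-4262 for MT-ND1, chrM:5488-5511 for MT-ND2, chrM:9967-9990 for MT-CO3, chrM:10381-10404 for MT-ND3, chrM:12114-12137 for MT-ND4 and chrM:15864-15887 for MT-CYB, all on the plus strand.
MT-ND1: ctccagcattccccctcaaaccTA
MT-ND2: ccccttttatactaataatcttaT
MT-CO3: tctccatctattgatgagggtctT
MT-ND3: aaaaaggattagactgaaccgaaT
MT-ND4: acatcattaccgggttttcctctT
MT-CYB: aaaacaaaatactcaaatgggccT

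The rRNAs are shown at their longest run of A, in capitals, since they were the genes that rose in HT-29. The stretch of MT-RNR1, the 12S rRNA of the small ribosomal subunit, is chrM:978-1013, and that of MT-RNR2, the 16S rRNA of the large subunit, is chrM:2442-2478, both on the plus strand. The run is 6 bases long in MT-RNR1 and 7 bases long in MT-RNR2. Runs of 7 are also found in MT-ND2, MT-CO1 and MT-ND4, and a run of 8 in MT-ND5.
MT-RNR1: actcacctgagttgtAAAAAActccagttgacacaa
MT-RNR2: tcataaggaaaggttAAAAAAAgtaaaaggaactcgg

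The last set holds the 3 tRNA genes with the most counts, and MT-TI, which overlaps the first of them. MT-TQ (tRNA for glutamine, chrM:4329-4400) and MT-TP (proline, chrM:15956-16023) lie on the minus strand. MT-TI (isoleucine, chrM:4263-4331) and MT-TT (threonine, chrM:15888-15953) lie on the plus strand. MT-TQ and MT-TI share 3 positions on opposite strands, given in capitals.
MT-TQ: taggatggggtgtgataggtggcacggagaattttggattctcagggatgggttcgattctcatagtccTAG
MT-TI: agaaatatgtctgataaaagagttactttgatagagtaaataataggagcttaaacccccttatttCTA
MT-TP: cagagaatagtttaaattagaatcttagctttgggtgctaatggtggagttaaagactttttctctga
MT-TT: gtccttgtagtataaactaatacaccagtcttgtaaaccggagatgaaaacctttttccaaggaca

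The first question was how much of each library the mitochondrial genome supplied. The 37 genes together took 3.98% of the counts of the LAD2 coculture library, and 5.39%, 5.37% and 4.82% of the counts of LAD2 alone. They took 3.19%, 2.98% and 3.07% in HT-29 coculture, and 3.28%, 2.82% and 2.94% in HT-29 alone. The LAD2 coculture library thus lay below all 3 libraries of LAD2 alone, while the HT-29 groups overlapped. In LAD2 the difference was -1.21 percentage points between 3.98% in coculture and 5.19% ± 0.323 alone (SD, n = 3). With 1 library against 3, the two-sided exact permutation test cannot go below 0.25, the p found. In HT-29 the means were 3.08% ± 0.108 in coculture and 3.02% ± 0.238 alone (SD, n = 3 each; exact permutation p = 0.7, two-sided, with 0.1 the smallest p possible).

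The classes of RNA did not move alike. The 13 mRNAs took 3.44% of the counts in LAD2 coculture, against 4.54% ± 0.294 in LAD2 alone, and 2.84% ± 0.102 in HT-29 coculture, against 2.82% ± 0.236 in HT-29 alone (SD, n = 3). The 2 rRNAs took 0.54% in LAD2 coculture and 0.648% ± 0.0295 in LAD2 alone. In HT-29 the rRNAs took 0.24%, 0.23% and 0.23% in coculture, and 0.199%, 0.195% and 0.202% alone, so that each coculture library was above each library alone (exact permutation p = 0.1, the smallest possible). Within the mitochondrial counts, the rRNAs held a larger share in coculture in both lines: 13.6% in LAD2 coculture against 12.5% ± 0.231 in LAD2 alone, and 7.58% ± 0.124 in HT-29 coculture against 6.61% ± 0.473 in HT-29 alone (exact permutation p = 0.25 and p = 0.1, the smallest that 1 against 3 and 3 against 3 allow). Groups did not overlap in either line.

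**Figure D1:**
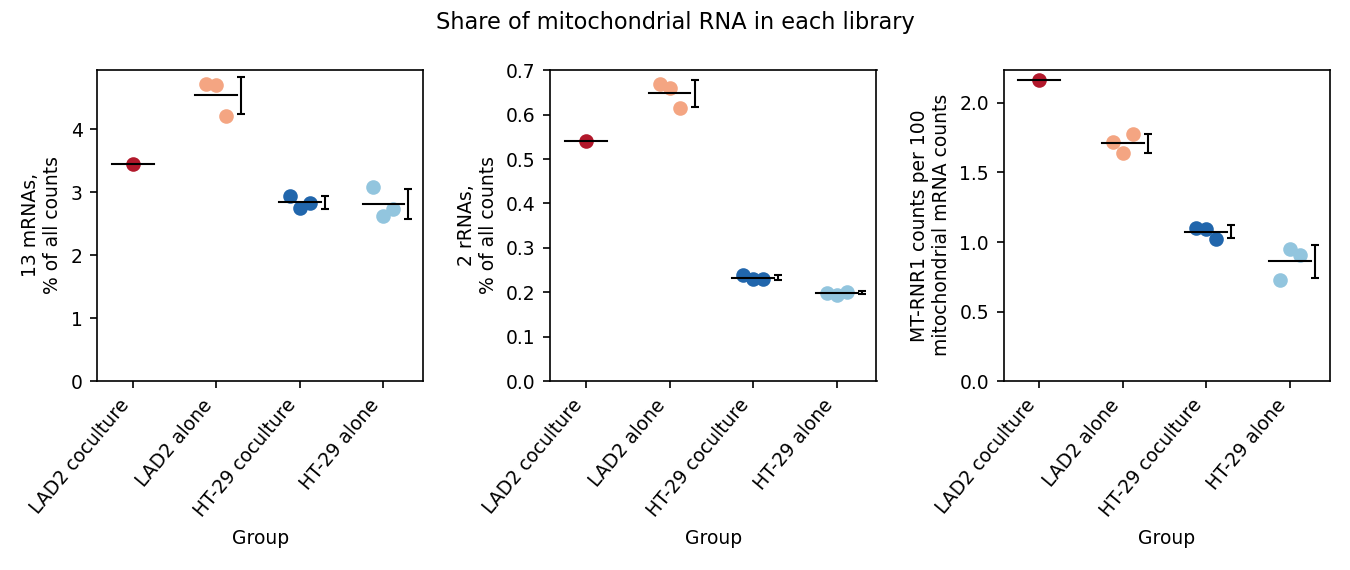
Share of mitochondrial RNA in each library: the 13 mRNAs and the 2 rRNAs as % of all counts, and MT-RNR1 counts per 100 mitochondrial mRNA counts. Points are libraries, lines are group means and bars at the side are the SD of the groups with 3 libraries. The LAD2 coculture point lies below LAD2 alone in the first 2 panels and above it in the last, and HT-29 coculture lies above HT-29 alone for the rRNAs and for MT-RNR1.

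Per length of gene, MT-CO2 and MT-CO1, core subunits of complex IV (cytochrome c oxidase), stood at the top in LAD2, and MT-CO2 and MT-CO3 stood at the top in HT-29. In LAD2 alone MT-CO2 had 7197 ± 309 CPM per kb and MT-CO1 had 7147 ± 482 CPM per kb (SD, n = 3), which do not differ beyond their spread. MT-ND4 followed with 5605 ± 422 CPM per kb. MT-CO3 with 4341 ± 252 CPM per kb and MT-ATP6 with 4243 ± 287 CPM per kb came next and lay within each other's spread. In HT-29 alone MT-CO2 had 5567 ± 425 CPM per kb, MT-CO3 had 4452 ± 247, MT-CO1 had 3843 ± 225, MT-ND4 had 3535 ± 350.0 and MT-ATP6 had 3206 ± 326 (all CPM per kb, SD, n = 3). MT-CO1 and MT-ATP6 each lay within the SD of MT-ND4. At the bottom in both lines were MT-ND6, with 95.2 ± 10.8 CPM per kb in LAD2 alone and 127 ± 30.7 CPM per kb in HT-29 alone, and MT-RNR1, with 814 ± 33.7 and 252 ± 15.8 CPM per kb in those groups. MT-ND6 is a subunit of complex I, and the low rank of MT-RNR1 is the reverse of its known abundance in cells, where rRNA far exceeds mRNA.

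**Figure D2:**
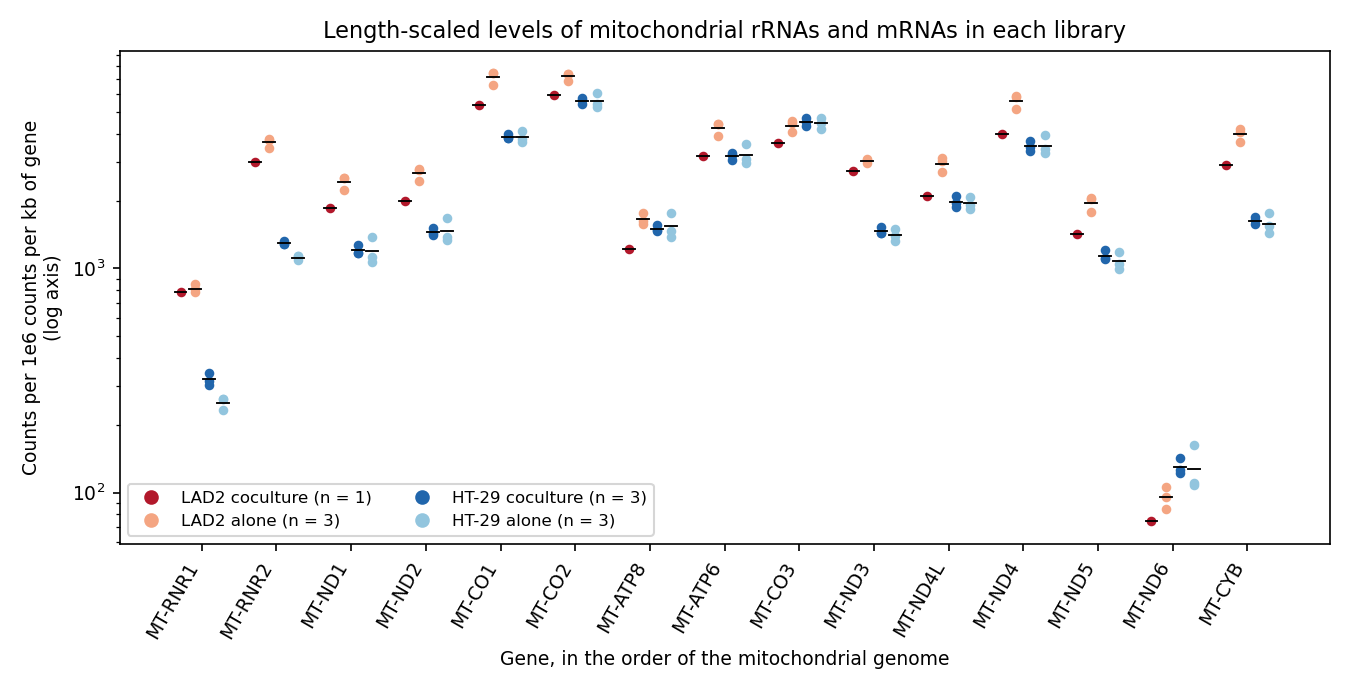
Length-scaled level (CPM per kb of gene, log axis) of the 2 rRNAs and 13 mRNAs in each library, in the order of the genome. Points are libraries and lines are group means, with LAD2 coculture, LAD2 alone, HT-29 coculture and HT-29 alone side by side for each gene. MT-CO1 and MT-CO2 stand near the top and MT-ND6 near 100 CPM per kb at the bottom, and the LAD2 coculture points lie under those of LAD2 alone.

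How the mast cell line differed in coculture was read from LAD2 coculture against LAD2 alone. The coculture medium and the way the lines were parted are not named, so contact cannot be told apart from them. Of the 37 genes 20 had enough counts to be tested, and 13 of them fell in coculture and none rose: 12 of the 13 mRNAs and MT-RNR2. Of all 15821 genes tested, 20.8% were called, 6.75% lower and 14.1% higher, at an adjusted p under 0.05 (edgeR quasi-likelihood F test, Benjamini-Hochberg over all genes tested). The median change of the 13 mRNAs was -0.42 on the log2 scale, against 0.0014 over all genes tested. The spread of the single coculture library was taken to equal that of LAD2 alone. In CPM, that library lay below all 3 libraries of LAD2 alone for 18 of the 20 genes. Among these was MT-RNR1, at 746.4 CPM against a lowest value of 746.9 CPM in LAD2 alone. The share of all genes for which it did so was not computed, so this count adds nothing to the calls. At an unadjusted p under 0.05 no gene of the 20 was higher, and DESeq2 called none higher either.

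The complex I genes held both the largest and the smallest change among the mRNAs. MT-ND4, part of the proton-pumping membrane arm of complex I, had 5478 CPM in LAD2 coculture, against 7989, 8126 and 7057 CPM in LAD2 alone, which was the largest fall of the 13 mRNAs (log2 fold change -0.51, SE 0.074, adjusted p = 5.34e-07). MT-ND4L, whose end overlaps MT-ND4, had 628 CPM in LAD2 coculture, against 895, 922 and 800.4 CPM in LAD2 alone (log2 fold change -0.48, SE 0.07, adjusted p = 4.29e-07). MT-ND5, another subunit of the pumping arm, had 2575 CPM in LAD2 coculture and 3693, 3738 and 3245 CPM in LAD2 alone. The coculture library lay clear below the lowest library alone for each of these genes. MT-ND3, a small complex I subunit, changed least, with 943 CPM in LAD2 coculture and 1069, 1049 and 1020.1 CPM in LAD2 alone, and did not pass the test (log2 fold change -0.16, SE 0.064, adjusted p = 0.0734), although it did without LAD2 alone replicate 3 (adjusted p = 0.000179). Its share of the 13 mRNAs was larger in coculture, 2.74% against 2.31% ± 0.105 in LAD2 alone, while the share of MT-ND4 was smaller, 15.9% against 16.8% to 17.3% in the 3 libraries of LAD2 alone. MT-ND1 and MT-ND2, subunits of the membrane arm, had 1771 and 2094 CPM in LAD2 coculture, and their lowest libraries alone had 2134 and 2560.2 CPM. Both fell, by 0.40 and 0.41 on the log2 scale. MT-ND6, read from the other strand, had 39.1 CPM in LAD2 coculture and 50.2, 55.6 and 44.3 CPM in LAD2 alone (log2 fold change -0.36, SE 0.089, adjusted p = 0.00179).

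Among the other mRNAs, MT-CYB, the cytochrome b subunit of complex III, had 3289 CPM in LAD2 coculture, against 4767, 4619.7 and 4179 CPM in LAD2 alone (log2 fold change -0.47, SE 0.072). Of the complex IV genes, MT-CO1, the catalytic subunit, had 8267 CPM in LAD2 coculture, against 11438, 11463 and 10163 CPM in LAD2 alone (log2 fold change -0.42, SE 0.073). The other complex IV mRNAs had smaller changes. MT-CO2 had 4069 CPM in LAD2 coculture and 5062, 5026 and 4679 CPM in LAD2 alone, and MT-CO3 had 2855 CPM in LAD2 coculture and 3551, 3481 and 3179 CPM in LAD2 alone, with log2 fold changes of -0.28 and -0.26. These smaller changes, like that of MT-RNR2, did not pass the test without LAD2 alone replicate 1 (adjusted p = 0.149 for MT-CO2, 0.196 for MT-CO3 and 0.129 for MT-RNR2). MT-ATP8 and MT-ATP6, which share a transcript, had 254 and 2171 CPM in LAD2 coculture. In LAD2 alone MT-ATP8 had 365, 336 and 327 CPM and MT-ATP6 had 3012, 2992 and 2665 CPM. The overlapping pair changed by nearly the same amount, -0.44 and -0.42 on the log2 scale.

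The rRNAs of LAD2 split. MT-RNR2 had 4656 CPM in LAD2 coculture, against 5882, 5829.8 and 5395 CPM in LAD2 alone (log2 fold change -0.30, SE 0.069, adjusted p = 0.000803). MT-RNR1 had 746 CPM in LAD2 coculture, against 811, 772 and 747 CPM in LAD2 alone, and did not pass the test (log2 fold change -0.07, SE 0.064, adjusted p = 0.546). Set against the mRNAs, MT-RNR1 was higher, at 2.17 counts per 100 mitochondrial mRNA counts in LAD2 coculture and 1.71 ± 0.0689 in LAD2 alone (SD, n = 3; exact permutation p = 0.25, the smallest possible). The ratio of MT-RNR2 to MT-RNR1 was 6.24 in LAD2 coculture, below the 7.26, 7.55 and 7.22 of LAD2 alone.

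The HT-29 RNA in the LAD2 coculture library was measured beside these falls. A mixture of both lines alone at that share gives a level for each gene, and the observed level over the mixture was 0.723 for MT-ND4 and 0.928 for MT-ND3, the ends of the range of the 13 mRNAs. It was 0.848 for MT-RNR2 and 0.998 for MT-RNR1. After subtraction of the HT-29 RNA the same 13 genes passed as lower and none as higher, where 10.4% of all genes tested were called, 4.47% lower. The log2 fold changes were then -0.49 for MT-ND4, -0.39 for MT-CO1 and -0.24 for MT-RNR2, close to those without subtraction.

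The same was asked of the cancer line. Of the 37 genes 22 were tested in HT-29 coculture against HT-29 alone, and 2 rose, the rRNAs, while none fell. Of all 14070 genes tested, 8.76% were called, 5.83% higher and 2.94% lower. MT-RNR1 had 325, 301 and 289 CPM in HT-29 coculture, against 223, 250.5 and 249 CPM in HT-29 alone (log2 fold change 0.33, SE 0.03, adjusted p = 1.27e-11). MT-RNR2 had 2074, 1996 and 2007 CPM in HT-29 coculture, against 1766, 1699 and 1769 CPM in HT-29 alone (log2 fold change 0.20, SE 0.021, adjusted p = 3.25e-10). For both rRNAs every coculture library lay above every library alone. How many of all genes did so was not computed, so this adds nothing to the calls. LAD2 alone had more of both rRNAs than HT-29 alone, and a mixture at the measured share of LAD2 RNA gives 247 CPM of MT-RNR1 and 1789 CPM of MT-RNR2. The observed levels were 1.24 and 1.13 times those values, and after subtraction of the LAD2 RNA the rises were 0.31 and 0.18 on the log2 scale, both still past the test (adjusted p = 1.45e-09 and 9.37e-08), with 3.14% of all genes called there, 1.72% higher and 1.43% lower.

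None of the 13 mRNAs of HT-29 passed the test, with log2 fold changes of -0.04 to 0.07 and SEs of 0.026 to 0.073. By DESeq2 none passed either, and at an unadjusted p under 0.05 only MT-ND5 did. MT-ND5 had 2186, 1992 and 2024 CPM in HT-29 coculture and 2145, 1811 and 1894 CPM in HT-29 alone (log2 fold change 0.07, SE 0.034, adjusted p = 0.217), and the groups overlapped, as they did for all 13 mRNAs. Its share of the mRNAs did not overlap, with 7.14% to 7.41% in HT-29 coculture and 6.90% to 6.96% in HT-29 alone. This share was picked from 13 that were not tested, and those of all other mRNAs overlapped. MT-CO1 had 6145, 5875 and 5906 CPM in HT-29 coculture and 6310.4, 5635 and 5831 CPM in HT-29 alone, a log2 fold change of -0.0013. MT-ND4 had 5114, 4613 and 4814 CPM in HT-29 coculture and 5415, 4496 and 4703 CPM in HT-29 alone, a log2 fold change of -0.02. Both ranges of HT-29 coculture lay inside those of HT-29 alone.

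HT-29 alone replicate 1 stood apart and decided how many mRNAs were called. It had the highest level of each of the 13 mRNAs in HT-29 alone, as with 85.3 CPM of MT-ND6 against 58.1 and 56.9 CPM in its group, and the lowest level of MT-RNR1. Its MT-RNR1 counts per 100 mRNA counts were 0.725, below the 0.954 and 0.907 of the other libraries alone, while HT-29 coculture had 1.10, 1.10 and 1.02. Without this library 9 genes rose and none fell, where 8.24% of all genes tested were called, 5.7% higher and 2.53% lower: both rRNAs and MT-ND1, MT-ND2, MT-CO2, MT-ND3, MT-ND5, MT-ND6 and MT-CYB, by 0.06 to 0.25 on the log2 scale for the mRNAs. MT-ND2 and MT-CO2 then turned direction, to 0.08 and 0.06. Without HT-29 alone replicate 2, MT-ATP8 fell (log2 fold change -0.12, adjusted p = 0.0297). MT-RNR1 and MT-RNR2 rose under every alternative run, by 0.28 to 0.36 and by 0.18 to 0.22 on the log2 scale.

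**Figure D3:**
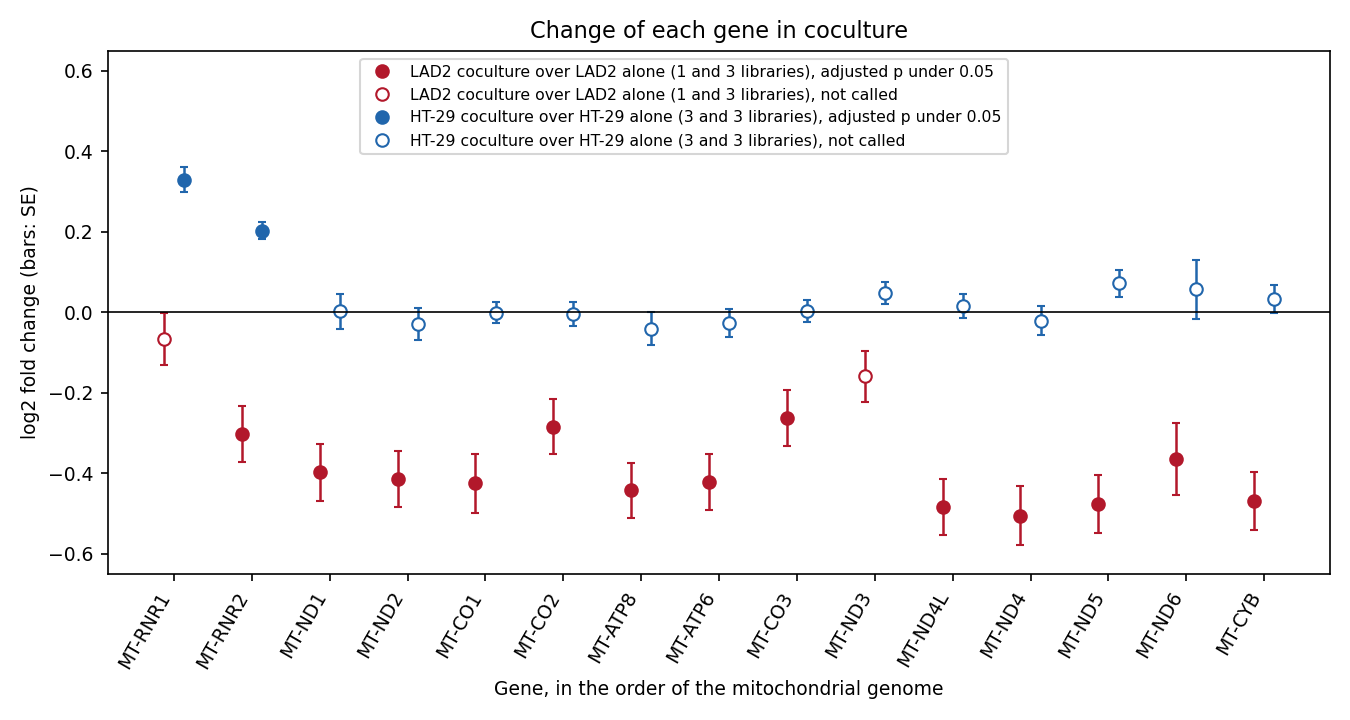
Log2 fold change (bars, SE) of the 2 rRNAs and 13 mRNAs in coculture over alone, LAD2 left of HT-29 for each gene. Filled points passed an adjusted p of 0.05, open points did not. The LAD2 points lie between -0.51 and -0.07, and in HT-29 only MT-RNR1 at 0.33 and MT-RNR2 at 0.20 are filled.

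The difference between the lines' responses was tested in 1 fit over the 10 libraries, with the change in HT-29 subtracted from the change in LAD2. Of 23 mitochondrially encoded genes tested 11 were lower and none higher: both rRNAs and 9 mRNAs. Of all genes 40.8% were called there, 7.11% lower and 33.7% higher. Scaling across both lines moved the median difference of all genes to 0.17 on the log2 scale, and scaling by nuclear genes alone moved it to -0.12. Leaving out HT-29 alone replicate 1 moved it to -0.094, and subtraction of the other line's RNA to 0.056. With the scaling computed within each line that median was 0.00029, and the same 11 and 5 further genes were lower, where 28.6% of all genes were called, 11.6% lower and 17.1% higher. On that scale the differences were -0.40 for MT-RNR1, -0.50 for MT-RNR2, -0.48 for MT-ND4, -0.55 for MT-ND5 and -0.50 for MT-CYB. The 5 further genes were MT-CO2 at -0.28, MT-CO3 at -0.27, MT-ND3 at -0.21, MT-ND6 at -0.41 and MT-TP at -1.16. All 15 rRNAs and mRNAs were on the negative side under each scaling. Without HT-29 alone replicate 1 the count was also 16, where 27.3% of all genes were called, 15.6% lower and 11.7% higher, and after subtraction of the other line's RNA it was 12, where 15% were called, 3.5% lower and 11.5% higher. The biological coefficient of variation was 4.03% in the fit of LAD2 and 1.70% in that of HT-29, and the joint fit used 2.76% for both.

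LAD2 alone and HT-29 alone were compared to set the starting levels. Of 22 genes tested 12 were higher in LAD2 and 6 lower, where 92.4% of all genes tested were called, 47.5% higher and 44.9% lower. The rRNAs differed most among the higher genes, with MT-RNR1 at 776 ± 32.1 CPM in LAD2 alone and 241 ± 15.1 CPM in HT-29 alone, and MT-RNR2 at 5702 ± 267 CPM in LAD2 alone and 1745 ± 39.4 CPM in HT-29 alone (SD, n = 3 each; log2 fold changes 1.68 and 1.70). MT-CYB at 1.31, MT-ND3 at 1.09 and MT-ND1 at 1.01 led the mRNAs, and MT-CO2 at 0.36 and MT-ATP6 at 0.39 had the smallest differences among the 10 mRNAs called higher. MT-ATP8 and MT-CO3 did not pass the test, with log2 fold changes of 0.09 and -0.05. MT-ND6 was the only mRNA lower in LAD2, at 44.3 to 55.6 CPM in LAD2 alone and 56.9 to 85.3 CPM in HT-29 alone (log2 fold change -0.42, adjusted p = 1.03e-05). The minus-strand genes together took 0.104% ± 0.0056 of the mitochondrial counts in LAD2 alone and 0.245% ± 0.0354 in HT-29 alone, with no overlap (exact permutation p = 0.1, the smallest possible). In coculture that share was 0.105% in LAD2 and 0.25% ± 0.0136 in HT-29, inside the range of each line alone.

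The 22 tRNAs were close to the limit of detection. They had 85 counts in the LAD2 coculture library, 97 to 121 in LAD2 alone, 200 to 392 in HT-29 coculture and 174 to 361 in HT-29 alone. MT-TV, MT-TK, MT-TR, MT-TG and MT-TL2, the tRNAs for valine, lysine, arginine, glycine and one leucine codon box, had no count in any library, which allows up to 0.0879 to 0.174 CPM per library. Another 6 had 1 to 10 counts over the 10 libraries, and 11 had more. Of those 11, 6 lie on the minus strand, out of 8 tRNAs there, and 5 on the plus strand, out of 14. The tRNAs are short and folded, and the counting strand is not given, so reads of a longer precursor, or of the opposite strand, cannot be told apart from the tRNA.

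MT-TQ had the most counts, 497 over the 10 libraries, followed by MT-TP with 386, MT-TT with 264 and MT-TA (alanine) with 254. MT-TQ had 0.985 CPM in LAD2 coculture, 1.46, 1.01 and 1.06 CPM in LAD2 alone, 3.48, 3.07 and 1.96 CPM in HT-29 coculture and 2.66, 2.58 and 2.67 CPM in HT-29 alone. MT-TP had 0.67 CPM in LAD2 coculture, 1.61, 0.866 and 1.28 CPM in LAD2 alone, 2.23, 1.96 and 2.50 CPM in HT-29 coculture and 1.69, 2.08 and 1.57 CPM in HT-29 alone. For both tRNAs the LAD2 coculture library was the lowest of all. No tRNA passed the test in either coculture comparison, among 5 tested in LAD2 and 7 in HT-29. The smallest p in LAD2 was that of MT-TP (log2 fold change -0.91, SE 0.433, adjusted p = 0.148). In HT-29 it was that of MT-TT (log2 fold change 0.37, SE 0.195, adjusted p = 0.292). MT-TT had 1.99, 1.66 and 2.01 CPM in HT-29 coculture and 1.53, 1.44 and 1.39 CPM in HT-29 alone. It was the only tested tRNA whose HT-29 groups did not overlap. The share of all genes without overlap was not computed, so this adds nothing to the test. Between the lines alone 5 of 7 tested tRNAs were lower in LAD2, where 44.9% of all genes tested were lower and 47.5% higher. Most mRNAs were higher there. The largest differences were those of MT-TA, with 0.268 CPM in LAD2 alone and 1.55 CPM in HT-29 alone (log2 fold change -2.53, SE 0.327), and MT-TT, with 0.334 CPM in LAD2 alone and 1.45 CPM in HT-29 alone (log2 fold change -2.14, SE 0.313). MT-TQ at -1.17, MT-TS1 (serine) at -0.69 and MT-TP at -0.56 followed, and MT-TI and MT-TE (glutamate) did not pass. MT-TA and MT-TT had 17 and 21 counts in LAD2 alone, too few to be tested within LAD2. They were tested here through their 110 and 103 counts in HT-29 alone, so the filter on counts largely set their direction. MT-TP was at -0.34 without LAD2 alone replicate 2 (adjusted p = 0.176) and at -0.41 without HT-29 alone replicate 2 (adjusted p = 0.163). MT-TS1 did not pass without LAD2 alone replicate 2, LAD2 alone replicate 3 or HT-29 alone replicate 2 (adjusted p = 0.115, 0.149 and 0.0923).

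**Figure D4:**
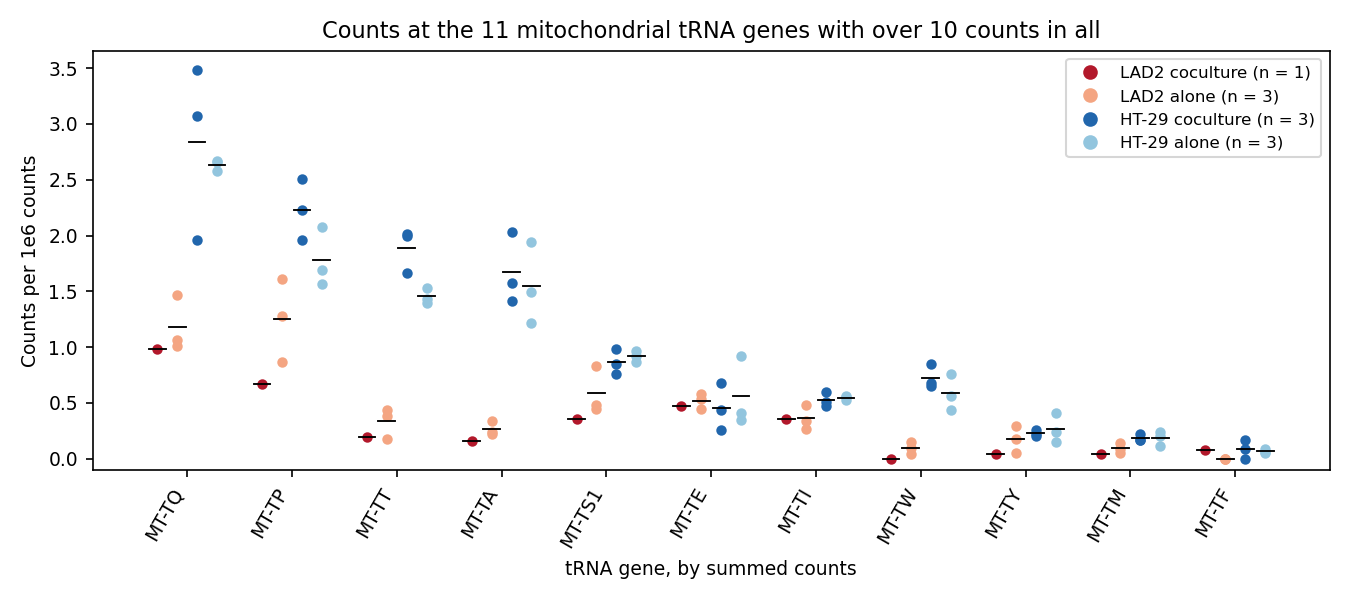
Counts per 1e6 counts at the 11 tRNA genes with over 10 counts in all, ordered by summed counts. Points are libraries and lines are group means, with LAD2 coculture, LAD2 alone, HT-29 coculture and HT-29 alone side by side. The HT-29 libraries stand above the LAD2 libraries for MT-TQ, MT-TT and MT-TA, and every value is under 3.5 CPM.

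Nuclear DNA holds copies of mitochondrial genes, and the copies were checked because reads can match both. Stretches of 50 bases that occur in the transcript of another gene made up 49.5% of MT-CO1, 46.7% of MT-ATP6, 43.6% of MT-ND2, 30.6% of MT-CO3 and 28.98% of MT-CO2, but 0% of MT-RNR1, MT-ND3 and MT-ND4L and 14.0% of MT-RNR2. The authors' counting could have split reads of the genes with shared stretches, so their levels are uncertain to that extent. The 417 annotated nuclear copies summed to 0.938% to 1.204% of the mitochondrial CPM in the 10 libraries. MTATP6P1, a copy on chromosome 1, held most of it, with 294 CPM in LAD2 coculture, 399 ± 31.7 CPM in LAD2 alone, 293 ± 5.85 CPM in HT-29 coculture and 282 ± 26.3 CPM in HT-29 alone (SD, n = 3). The tRNAs also had no shared stretch. Of the 3 such genes among the rRNAs and mRNAs, MT-ND4L fell in LAD2, MT-RNR1 and MT-ND3 did not pass there, and only MT-RNR1 passed in HT-29.

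RNAs made without a tail of A were listed after values were seen, to show what the libraries hold besides tailed RNA. The 12 of them summed to 1.10 CPM in LAD2 coculture, 1.81 to 3.85 CPM in LAD2 alone, 3.18 to 5.12 CPM in HT-29 coculture and 3.66 to 4.86 CPM in HT-29 alone. RN7SL2, the RNA of the signal recognition particle and the only one tested, fell in LAD2 (log2 fold change -1.34, adjusted p = 0.00944) and did not pass in HT-29. The part of tail selection in the mitochondrial changes was not tested.

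Nuclear genes whose products work with the mitochondrial genome were counted by function. Of the 79 nuclear subunits of complexes I, III and IV and ATP synthase, 75 were tested in LAD2, and 19 rose and 2 fell in coculture, where 14.1% of all genes tested rose and 6.75% fell, with a median of 0.14 on the log2 scale against 0.0014 over all genes. In HT-29 none of 74 rose and 4 fell, where 5.83% of all genes rose and 2.94% fell, with a median of -0.03, and after subtraction of LAD2 RNA 1 was still lower. In LAD2 NDUFB9, a complex I subunit, had 79.6 CPM in coculture and 53.2 ± 2.06 CPM alone (log2 fold change 0.57). COX5A, a complex IV subunit, had 99.3 CPM in LAD2 coculture and 78.8 ± 2.48 CPM in LAD2 alone (log2 fold change 0.32), and ATP5PD, of the ATP synthase stalk, had 85.7 CPM in LAD2 coculture and 71.4 ± 1.79 CPM in LAD2 alone (log2 fold change 0.25). NDUFA12, a complex I subunit, fell, with 78.2 CPM in LAD2 coculture and 95.0 ± 4.01 CPM in LAD2 alone (log2 fold change -0.29). After subtraction of HT-29 RNA 5 of the 75 rose and 1 fell, where 5.92% of all genes rose and 4.47% fell, with a median of 0.12, and COX5A and ATP5PD still passed while NDUFB9 did not (log2 fold change 0.18, adjusted p = 0.128). In HT-29 ATP5MC1, of the membrane ring of ATP synthase, had the smallest p, with 107.5 ± 3.12 CPM in coculture and 117 ± 6.86 CPM alone (log2 fold change -0.14, adjusted p = 0.00165).

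The proteins of the mitochondrial ribosome, which carry the rRNAs, were counted from 82 genes. In LAD2 19 of 81 tested rose and 1 fell, where 14.1% of all genes rose and 6.75% fell, with a median of 0.13. After subtraction of HT-29 RNA 2 rose and 1 fell, where 5.92% of all genes rose and 4.47% fell, with a median of 0.06. MRPL13, of the large subunit, was among those that no longer passed, with 37.1 CPM in LAD2 coculture and 25.4 ± 3.36 CPM in LAD2 alone, a log2 fold change of 0.53 that was 0.03 after subtraction. In HT-29, where the rRNAs rose, MRPS18B was the only ribosomal protein gene that rose (86.7 ± 1.67 CPM in coculture and 79.9 ± 1.61 CPM alone, log2 fold change 0.10) and MRPL13 the only one that fell, with a median of -0.02 over the 81. After subtraction of LAD2 RNA MRPS18B still passed and MRPL13 did not (log2 fold change -0.06, adjusted p = 0.151). Between the lines alone, 73 of the 81 were lower in LAD2 and 5 higher, where 44.9% of all genes were lower and 47.5% higher, with a median of -1.07, while both rRNAs were higher in LAD2.

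The smaller lists are read against the same shares, 14.1% of all genes higher and 6.75% lower in LAD2 and 5.83% higher and 2.94% lower in HT-29, and a count near these shares is not a result about a list. Of 9 genes for transcription of mitochondrial DNA, TFAM, which packs and activates it, was the only one that rose in LAD2 (56.2 CPM in coculture and 46.3 ± 2.29 CPM alone, log2 fold change 0.27), and none changed in HT-29 at an adjusted p of 0.05. Of 18 genes for replication and upkeep of the DNA, 3 rose in LAD2, TWNK, SSBP1 and ATAD3A, and 2 fell, RRM2B, a ribonucleotide reductase subunit, and POLG2, the accessory subunit of the polymerase (15.5 CPM of POLG2 in coculture and 20.9 ± 2.27 CPM alone, log2 fold change -0.44). Of 42 genes for processing, modification and stability of mitochondrial RNA, 3 rose and 1 fell in LAD2. REXO2, which degrades short RNA fragments, had 16.2 CPM in LAD2 coculture and 9.92 ± 0.616 CPM in LAD2 alone (log2 fold change 0.69), and PNPT1, the RNA-degrading phosphorylase, had 32.7 CPM in LAD2 coculture and 25.5 ± 1.49 CPM in LAD2 alone (log2 fold change 0.35). After subtraction REXO2 still passed (log2 fold change 0.39, adjusted p = 0.0369) and so did POLG2 (log2 fold change -0.43, adjusted p = 0.0089), while TFAM, TWNK, SSBP1, ATAD3A, RRM2B and PNPT1 did not. Translation factors had 2 of 16 higher and 1 lower in LAD2, aminoacyl-tRNA synthetases 1 of 22 higher, and regulators of mitochondrial biogenesis 2 of 9 tested higher, MYC and PPRC1. After subtraction PPRC1 did not pass (log2 fold change 0.10, adjusted p = 0.517). MYC, with 39.1 CPM in LAD2 coculture and 28.9 ± 1.01 CPM in LAD2 alone (log2 fold change 0.42), turned direction after subtraction (log2 fold change -0.35, adjusted p = 0.00998). In HT-29 1 gene each of the replication and translation factor lists fell, SSBP1 and GFM1, and neither list had a gene that rose. After subtraction of LAD2 RNA neither gene passed (adjusted p = 0.0709 for SSBP1 and 0.0815 for GFM1).

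**Figure D5:**
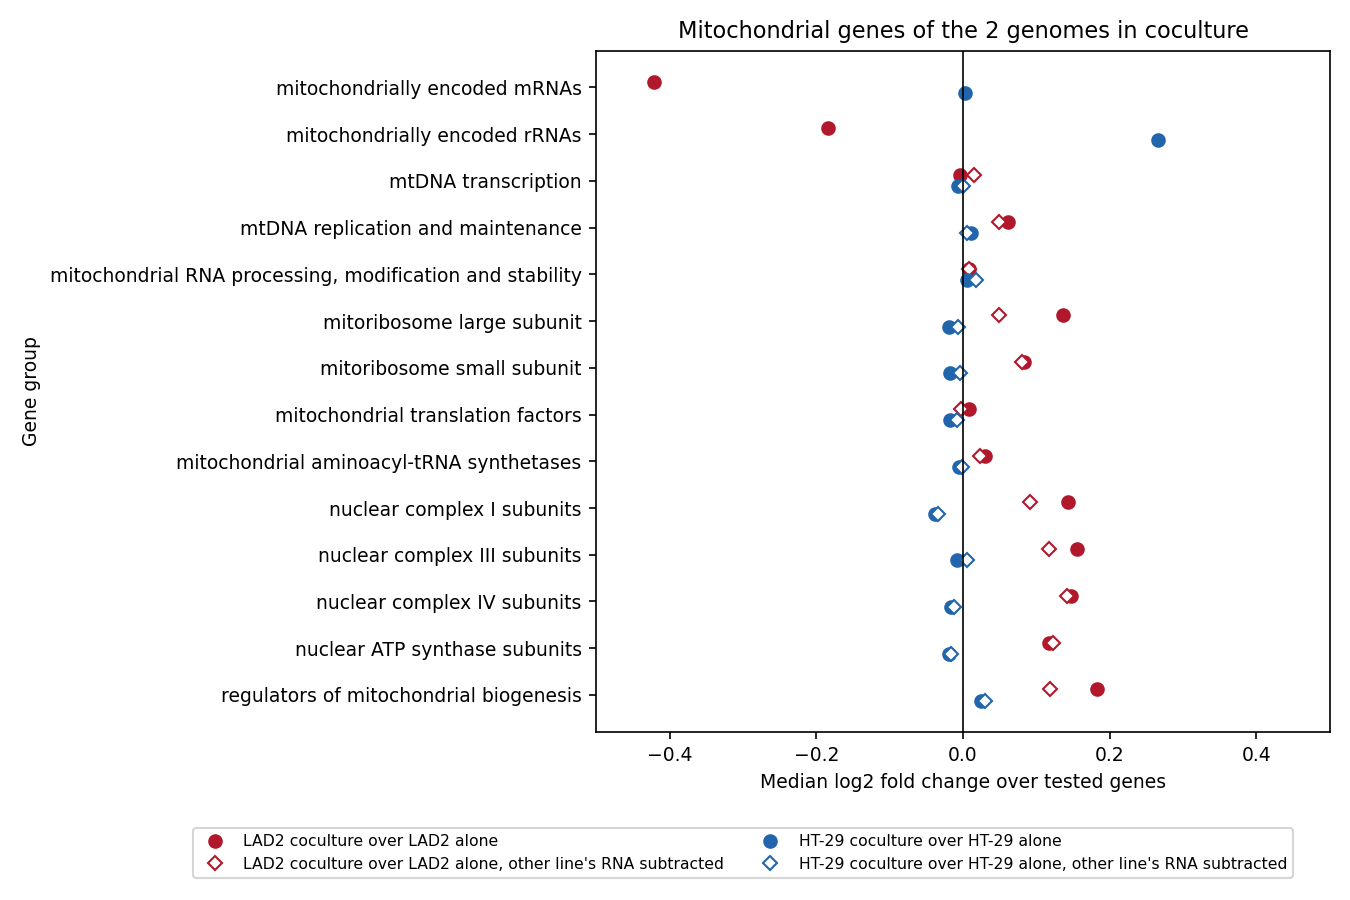
Median log2 fold change in coculture over the tested genes of each group, for LAD2 and HT-29. Open diamonds, drawn for the nuclear groups only, are medians after subtraction of the other line's RNA. The mitochondrially encoded mRNAs of LAD2 stand at -0.42, left of every nuclear group, and the mitochondrially encoded rRNAs of HT-29 stand right of every nuclear group of that line.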

How the data were processed

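RNA sequencing libraries of LAD2 and HT-29, alone or in coculture, were deposited by the authors as 1 table of raw counts per gene, without normalization. FastQC 0.11.9, STAR 2.7.10a, DESeq2 3.24.0 and build hg38 are named in the submitters' processing notes. For counting, program, strand setting and gene models were not given in the sources used here. Identifiers were matched to GENCODE 29, and all 58721 matched. Identical columns were counted as 1 library. Each comparison was fitted over all genes in edgeR 4.0.16 (R 4.3.3) with TMM scaling, filterByExpr, its quasi-likelihood F test (two-sided) and p-values adjusted by Benjamini-Hochberg, with a threshold of 0.05. SEs are the log2 fold change over the square root of F. Shares of counts were compared by exact permutation of libraries (scipy 1.17.1). The fits were tested on simulated data. RNA of the other line was estimated from genes at 50 CPM or more in it and no more than 0.5 CPM in the receiving line, as the median ratio over 327 genes for HT-29 RNA and 309 genes for LAD2 RNA. A count of 0 allows up to 3 counts, and this covers counting error only. All 37 genes were accounted for: the 13 mRNAs and 2 rRNAs were named, tRNAs by abundance and smallest p, and of each nuclear list up to 4 called genes with the smallest p. The members and lists were chosen with earlier results of these data known. Alternatives were other scalings, DESeq2 1.42.0, no filter, a replicate block, subtraction of the other line's RNA and leaving out each replicate. Scaling within each line, the share of the rRNAs alone and the list counts after subtraction were chosen after seeing the data. A call in the synthetase list is not reported here.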

Additional observations from a re-analysis of the deposited data

Results flagged for a closer look

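The responses of the lines differed by the test of the difference itself (edgeR interaction over 10 libraries, adjusted p under 0.05) for 11 mitochondrially encoded genes, all lower in the LAD2 response than in the HT-29 response. The differences on the log2 scale were -0.22 for MT-RNR1, -0.33 for MT-RNR2, -0.22 for MT-ND1, -0.21 for MT-ND2, -0.25 for MT-CO1, -0.22 for MT-ATP8, -0.22 for MT-ATP6, -0.32 for MT-ND4L, -0.31 for MT-ND4, -0.37 for MT-ND5 and -0.33 for MT-CYB. By DESeq2 the differences of MT-ND1, MT-ND2, MT-ATP8 and MT-ATP6 did not pass (adjusted p = 0.152, 0.131, 0.099 and 0.0521). The differences were read against a median of 0.17 over all genes tested in that fit. For the rRNAs the difference joined a rise in HT-29 to a fall of MT-RNR2 and no called change of MT-RNR1 in LAD2, and for the mRNAs it joined falls in LAD2 to changes in HT-29 that did not pass the test.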

How the results depend on the processing

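In LAD2 the 13 called genes kept their direction in all 117 alternative values, and 3 values missed the threshold, those of MT-RNR2, MT-CO2 and MT-CO3 without LAD2 alone replicate 1. The log2 fold changes of all rRNAs and mRNAs in LAD2 were negative in every alternative run. They ran from -0.56 to -0.47 for MT-ND4 and from -0.34 to -0.24 for MT-RNR2. For MT-RNR1 they ran from -0.09 to -0.0022. In HT-29 both rRNAs passed in all 26 values. The number higher was 2 to 9 and the number lower 0 to 1 when a replicate was left out, where 656 to 855 of all genes were higher and 269 to 415 lower. Leaving out 1 replicate gave MT-ND2 -0.0947 to 0.0837 and MT-CO2 -0.04665 to 0.0634 on the log2 scale, the upper ends without HT-29 alone replicate 1 (adjusted p = 0.00652 and 0.0371). The log2 ratio of the mitochondrial share of counts was 0.23 for the rRNAs alone and 0.03 for all genes in HT-29, -0.26 and -0.38 in LAD2, and 1.71 and 0.78 between the lines alone, and leaving out 1 replicate gave all genes -0.02 to 0.09 in HT-29, -0.43 to -0.35 in LAD2 and 0.74 to 0.85 between the lines. In the difference of the responses 16 genes were lower by DESeq2 size factors, library totals, nuclear scaling, within-line scaling and no filter, 10 by DESeq2 (without MT-ND1, MT-ND2, MT-ATP8 and MT-ATP6, with adjusted p = 0.152, 0.131, 0.099 and 0.0521, and with MT-CO2, MT-CO3 and MT-ND3 added), 12 after subtraction and 8 to 16 without a replicate. Over all genes that fit called 5877 higher and 1240 lower, against 1998 and 3383 with nuclear scaling, 3343 and 1763 with DESeq2 size factors, 2976 and 2015 within lines, 2943 and 2025 by totals, 2903 and 1375 by DESeq2, 1744 and 2109 with no filter and 1997 and 611 after subtraction. DESeq2 called 547 higher and 186 lower in HT-29, against 820 and 413, and 1485 and 469 in LAD2, against 2230 and 1068; subtraction left 236 and 196 in HT-29 and 902 and 681 in LAD2. Between the lines alone 12 to 13 genes were higher and 5 to 7 lower without a replicate. Of all 16047 to 16268 genes tested in those runs, 7502 to 7575 were higher and 7077 to 7278 lower. MT-TP and MT-TS1 missed the threshold by DESeq2 (adjusted p = 0.077 and 0.11). Same-numbered libraries of HT-29 did not deviate together (correlations of 0.0059, -0.015 and 0.035), so the numbers did not pair them. With a replicate block 3 genes rose in HT-29 instead of 2, MT-ND5 being added (log2 fold change 0.07, adjusted p = 0.00264). Of all genes tested 876 were higher and 522 lower in that run. Between the lines 13 were higher and 5 lower with the block, where 7490 of all genes were higher and 7064 lower. MT-TS1 missed the threshold there (adjusted p = 0.0565). MT-ND5 also passed with no filter (adjusted p = 0.00236), and MT-ND3 passed in LAD2 by DESeq2 (adjusted p = 0.0456). Leaving out a replicate moved the median difference of the responses over all genes to between -0.10 and 0.18 on the log2 scale. The cause of these moves was not tested. The tRNAs had 85 to 392 counts per library, which limits their precision.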
